A study of Mus musculus with 6 samples.

Results

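Growth hormone signals in the liver through a short chain of proteins, and 10 genes of that chain were examined here. They are the receptor Ghr, its kinase Jak2, the transcription factors Stat5a and Stat5b, the repressor Bcl6, the feedback inhibitors Cish, Socs2 and Socs3, and the secreted products Igf1 and Igfals. The members were fixed by gene symbol, all 10 were found among the 55450 genes of the deposited count table, and all 10 passed the filter on low counts. The libraries were made from poly(A) RNA of the left liver lobe of 6 mice, labelled as strain C57BL/J and aged 10 weeks. In the knockout (KO) group, 3 LKB1 fl/fl mice had received AAV8 Cre at 6 weeks of age. In the wild-type (WT) group, 3 mice with normal LKB1 alleles had received the same virus, so that virus and Cre exposure are shared by both groups. LKB1 is the kinase encoded by Stk11, and AAV8 is a viral vector that reaches hepatocytes well. The promoter that drives Cre is not given in the sources used here. Each library is a separate mouse, and no untreated mouse was included.

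Growth hormone is released from the pituitary in pulses that differ between male and female rodents. Binding to the receptor activates JAK2, which phosphorylates STAT5, and STAT5 then enters the nucleus and switches on target genes such as Igf1, Igfals, Socs2 and Cish. CIS (the product of Cish), SOCS2 and SOCS3 dampen the receptor, and BCL6 is a repressor that recognises DNA letters much like those of STAT5. The liver supplies most circulating IGF1, which travels with IGF binding proteins and the acid-labile subunit encoded by Igfals. Because the pulse pattern sets the activity of STAT5, many liver genes differ between the sexes through this pathway.

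STAT5 and BCL6 bind variants of the letters TTCNNNGAA, and the start regions of the members were searched for them. RefSeq windows of the build GRCm38.p6, from 250 bases before to 50 bases after a transcription start, were found for 9 of the 10 genes, with 15 windows in all, and not for Socs2. The letters read the same on both strands. They occurred in at least 1 window of 4 members, Cish, Socs3, Bcl6 and Igfals, and in 9.55% of the 27025 genes of the table (8.30% of 32851 windows). The stretches of these 4 genes are shown next, and a link between the letters and the expression values was not tested. Capitals mark TTCNNNGAA, and each stretch reads 5′ to 3′ on the strand of its gene.
Cish, chr9:107296654-107296683, plus strand: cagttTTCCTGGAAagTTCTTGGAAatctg
Socs3, chr11:117969502-117969530, minus strand: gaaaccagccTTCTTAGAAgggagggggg
Bcl6, upstream start, chr16:23988952-23988980, minus strand: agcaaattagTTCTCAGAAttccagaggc
Bcl6, internal start, chr16:23981433-23981461, minus strand: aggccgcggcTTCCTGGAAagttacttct
Bcl6, internal start, chr16:23981387-23981415, minus strand: ggcaggagtgTTCTGTGAAatccttagag
Bcl6, internal start, chr16:23981353-23981381, minus strand: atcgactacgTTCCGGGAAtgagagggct
Igfals, first start, chr17:24877598-24877626, plus strand: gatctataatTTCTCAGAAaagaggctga
Igfals, second start, chr17:24878163-24878191, plus strand: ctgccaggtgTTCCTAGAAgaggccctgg
Cish carried 2 copies next to each other at a transcription start, and the internal start of Bcl6 had 3 copies within its upstream bases. No match in a window says only that these letters are not in it, as for Igf1, Ghr, Jak2, Stat5a and Stat5b.

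The libraries held 47659122 to 56147667 counts each, and values are given below as CPM, a count divided by the normalised library size and scaled to 1000000. Stk11 was at 22.1, 14.4 and 11.4 CPM in KO 1 to 3 and at 64.2 to 69.7 CPM in WT, so its lower level matched the labels and KO 1 kept the most of it. The libraries also differed in sex markers that the labels do not give. KO 1 and WT 1 had 42472 and 29243 counts of Xist and at most 6 counts of 4 Y-linked genes, and the other 4 libraries had at least 6146 Y-linked counts and at most 16 of Xist. KO 1 and WT 1 are called the Xist pair here, and KO 2, KO 3, WT 2 and WT 3 the Y-linked libraries. KO 1 is the only KO library with Xist counts and also the one with the most Stk11, so these 2 properties cannot be told apart.

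In the comparison of all 6 libraries, edgeR (quasi-likelihood test, adjusted p-value below 0.05) called 0 of the 10 members and 3.37% of 14539 genes. Before adjustment 7 members were below 0.05, against 26.3% of all genes. The limma voom fit called 0 members (background 2.97%). DESeq2 called 5 (background 15.8%), 1 higher and 4 lower in KO, beside 8.74% higher and 7.01% lower among all genes. In 5 members, Ghr, Jak2, Stat5a, Socs2 and Igfals, every KO library lay below every WT library. Such separation downward was seen for 15.5% of the genes tested. No member was separated upward, as 16.9% of genes were.

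Within the Y-linked libraries (2 against 2), 9 of the 10 members passed the same test, 7 lower and 2 higher in KO. In those libraries 33.3% of 14546 genes passed, 16.1% lower and 17.2% higher. Igf1 was the exception. Both KO libraries lay below both WT libraries for 8 members and above both for 2, and 35.2% and 36.6% of all genes were separated in this way. The median log2 fold change of the members was -0.82 there, beside 0.01 for all genes tested. These 4 libraries are part of the 6, so the 2 results are not independent of each other. With sex state as an added term over all 6 libraries, 2 members passed, Socs2 and Igfals, both lower in KO, against 10.3% of all genes (4.99% lower).

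**Figure D1:**
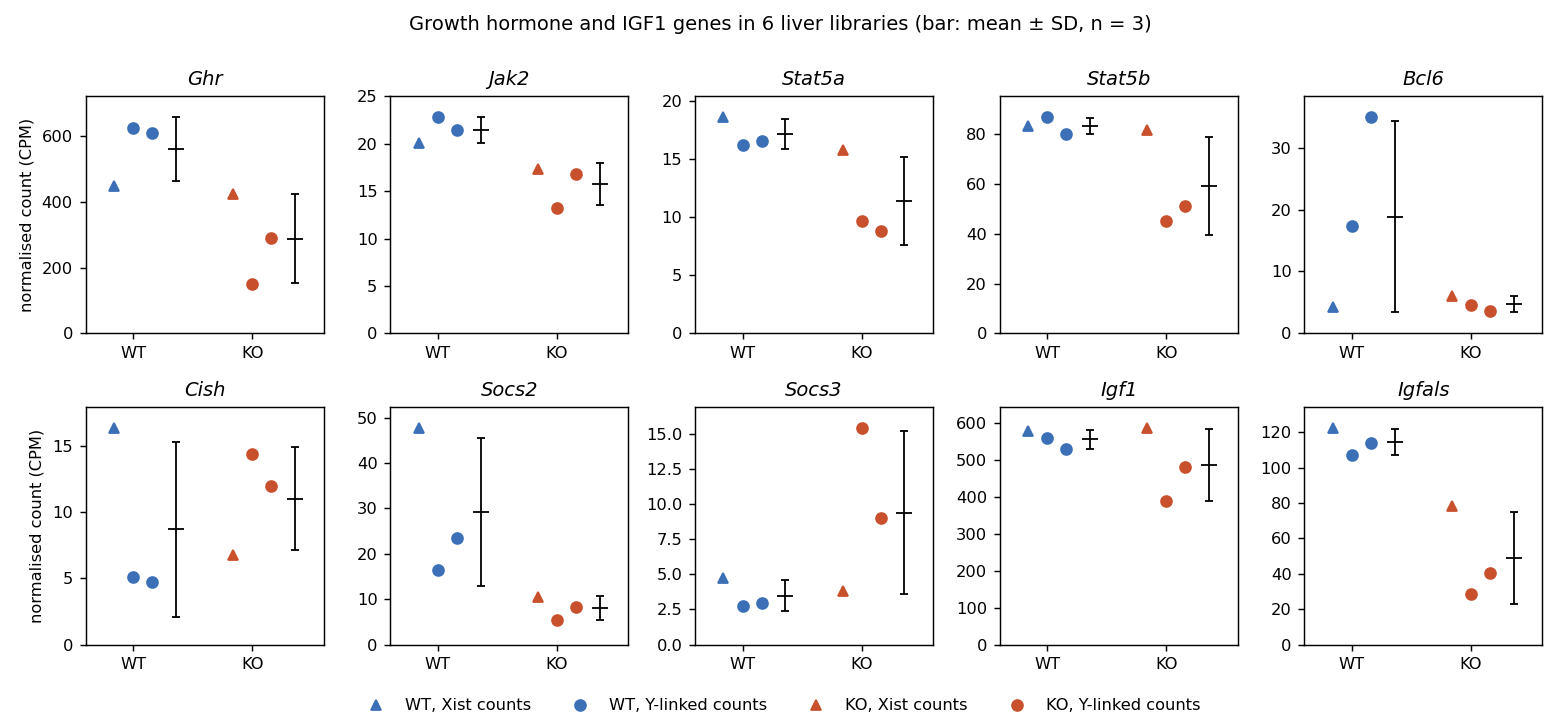
Normalised counts (CPM) of the 10 genes in each library, with triangles for the Xist pair, circles for the Y-linked libraries and bars for the mean ± SD of each group (n = 3). KO 2 and KO 3 lie below all WT libraries for Ghr, Jak2, Stat5a, Stat5b, Socs2, Igf1 and Igfals, while KO 1 lies close to WT 1 for Ghr, Stat5b and Igf1.

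The receptor transcript was lower in KO, most of all in KO 2. Ghr (chromosome 15, 3317760 to 3583492, minus strand) was at 423, 151 and 289.6 CPM in KO 1 to 3 and at 448, 624 and 609 CPM in WT 1 to 3. The groups did not overlap, but KO 1 and WT 1 were only 1.06-fold apart. Over the 6 libraries the log2 fold change was -0.96 ± 0.372 (SE, adjusted p = 0.163). In the Y-linked libraries Ghr fell by 2.80-fold on the means (log2 fold change -1.49 ± 0.321, adjusted p = 0.0204). Jak2 (chromosome 19, 29251828 to 29313080, plus strand), the kinase that docks on the receptor, was at 17.4, 13.3 and 16.8 CPM in KO and at 20.1, 22.8 and 21.4 CPM in WT. It had no overlap between groups and a narrow spread, with a log2 fold change of -0.44 ± 0.140 over the 6 libraries (adjusted p = 0.113) and -0.57 ± 0.145 in the Y-linked libraries (adjusted p = 0.0332).

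Both Stat5 genes were also lower in KO 2 and KO 3 than in every WT library. Stat5b (chromosome 11, 100780731 to 100850724, minus strand), the form that is known to carry most of the growth hormone response in liver, was at 81.9, 45.1 and 51.1 CPM in KO and at 83.2, 86.9 and 80.3 CPM in WT. KO 1 stayed within the WT range, whereas KO 2 and KO 3 were far below it. The log2 fold change was -0.49 ± 0.230 over the 6 libraries (adjusted p = 0.226) and -0.80 ± 0.117 in the Y-linked libraries (adjusted p = 0.00654). Stat5a (chromosome 11, 100859351 to 100885169, plus strand) was at 15.7, 9.65 and 8.81 CPM in KO and at 18.6, 16.2 and 16.5 CPM in WT, with -0.58 ± 0.233 (adjusted p = 0.171) and -0.83 ± 0.115 (adjusted p = 0.00567). All 3 KO values of Stat5a were below the lowest WT value.

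The Stat5 genes are neighbours with similar coding sequence, and the counting program divided some reads between them. Their expected counts were not whole numbers in any of the 6 libraries, yet the sum of both was whole in all 6, within 0.01. The sum was 5689, 3041 and 2821 counts in KO and 5163, 5348 and 4531 counts in WT. Stat5a took 14.7% to 18.3% of the sum in every library, and the total was lowest in KO 2 and KO 3. Stat5a also overlaps Stat3, which lies on the other strand, by 72 bases at its end. Strand use is not given in the sources used here, so a few reads of that overlap could belong to either gene.

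Bcl6 (chromosome 16, 23965052 to 23988852, minus strand) is a repressor that growth hormone keeps low, and it is known to be higher in male than in female mouse liver. It was at 4.24 CPM in WT 1 and at 17.4 and 34.9 CPM in WT 2 and 3. All KO libraries were low, at 6.04, 4.61 and 3.54 CPM, which placed KO 2 and KO 3 near WT 1 and not near the WT libraries that share their Y-linked counts. In the Y-linked libraries Bcl6 fell by 6.42-fold on the means (log2 fold change -2.68 ± 0.362, adjusted p = 0.00528), the largest change among the 10 members. In the Xist pair it was 1.42-fold higher in KO. The pooled log2 fold change of -1.99 ± 0.676 did not pass (adjusted p = 0.128), and without WT 1 it was -2.47 (adjusted p = 0.0362). The internal start region of this gene holds the 3 copies of TTCNNNGAA shown above, whose part in these values was not tested.

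The 3 feedback inhibitors, which are all known STAT targets, did not move together. Cish (chromosome 9, 107296026 to 107302784, plus strand) was at 6.76, 14.4 and 12 CPM in KO and at 16.4, 5.09 and 4.70 CPM in WT. The high libraries were thus WT 1, KO 2 and KO 3, and the low ones KO 1, WT 2 and WT 3. In the Y-linked libraries Cish rose by 2.7-fold on the means (log2 fold change 1.43 ± 0.153, adjusted p = 0.00274), whereas in the Xist pair it was 2.42-fold lower in KO. The pooled value of 0.34 ± 0.531 (adjusted p = 0.712) combines these opposite directions, and each was opposite to that of Bcl6 in the same libraries.

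Socs2 (chromosome 10, 95385362 to 95417180, minus strand), a known target of STAT5 that tags the receptor for degradation, was low in all 3 KO livers. It was at 10.6, 5.40 and 8.19 CPM in KO and at 47.6, 16.4 and 23.5 CPM in WT, with no overlap. The log2 fold change was -1.86 ± 0.432 over the 6 libraries, with an adjusted p-value of 0.064. It was -1.56 ± 0.264 in the Y-linked libraries (adjusted p = 0.0101) and -1.76 with sex state as a term (adjusted p = 0.0235), and KO 1 was 4.51-fold below WT 1. Socs2 was the member with the lowest adjusted p-value over the 6 libraries, and the only one with a larger ratio in the Xist pair than in the Y-linked libraries.

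Socs3 (chromosome 11, 117966079 to 117970047, minus strand) is also induced by interleukin-6 and leptin signals through STAT3. It was at 3.81, 15.4 and 9.0 CPM in KO and at 4.75, 2.74 and 2.93 CPM in WT. KO 2 and KO 3 were above every other library, while KO 1 lay within the WT range. Socs3 rose by 4.31-fold on the means in the Y-linked libraries (log2 fold change 2.10 ± 0.284, adjusted p = 0.0053) and had 1.44 ± 0.499 over all 6 (adjusted p = 0.134). Cish and Socs3 were thus higher, and Socs2 lower, in the same KO 2 and KO 3 livers.

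**Figure D2:**
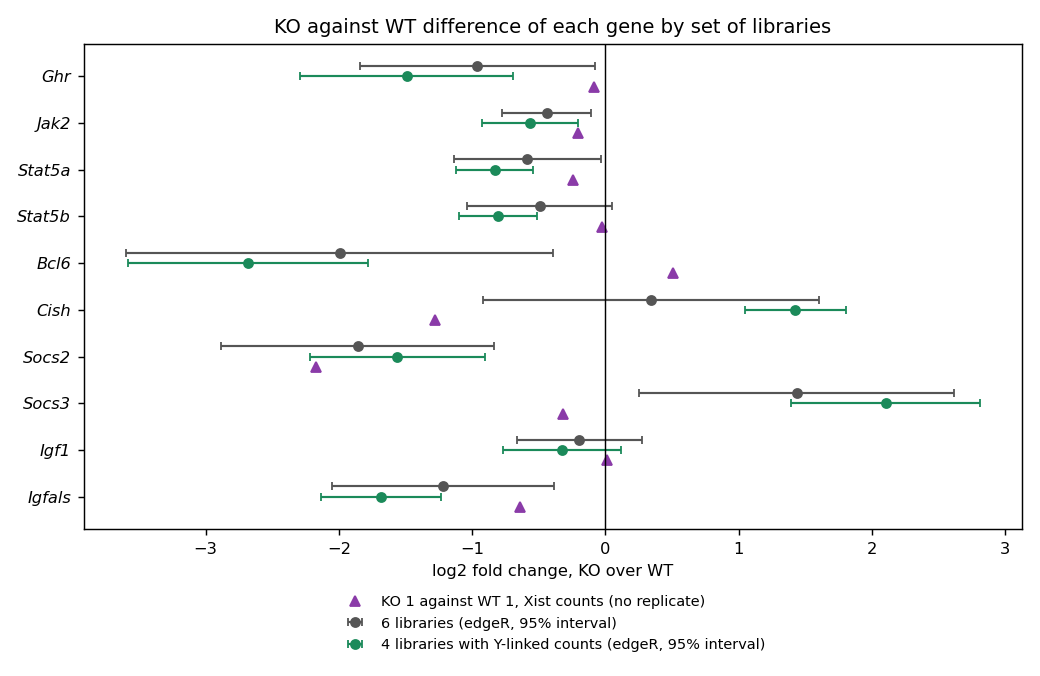
Log2 fold change of KO over WT for each of the 10 genes over all 6 libraries and over the 4 Y-linked libraries (edgeR, bars are 95% intervals), and for KO 1 against WT 1, which has no replicate. Bcl6, Cish and Socs3 lie on opposite sides of 0 in the Xist pair and the Y-linked libraries, and Igf1 lies near 0 in all 3 sets.

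Igf1, the main hormone product of the pathway, showed the smallest change of the 10 genes in the Y-linked libraries, beside a lower level of its carrier Igfals. Igf1 (chromosome 10, 87858265 to 87937042, plus strand) was at 585, 389 and 481 CPM in KO and at 579, 560 and 528 CPM in WT. KO 1 was the highest of the 6, and KO 2 and KO 3 were the lowest. The log2 fold change was -0.20 ± 0.197 over the 6 libraries (adjusted p = 0.56), with a 95% interval from -0.66 to 0.27. In the Y-linked libraries it was -0.33 ± 0.177 (adjusted p = 0.208), with an interval from -0.77 to 0.11. A fall of the size seen for Ghr or Igfals in these libraries lies outside that interval, and a smaller fall lies within it. The antisense gene Igf1os overlaps Igf1 and had 13 to 47 counts per library, against 21612 to 34094 for Igf1.

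Igfals (chromosome 17, 24865997 to 24882010, plus strand) encodes the subunit that keeps IGF1 in its large circulating complex. It was at 78.3, 28.8 and 40.2 CPM in KO and at 122, 107 and 114 CPM in WT. Every KO library was lower, and WT varied by only 6.60% (coefficient of variation, n = 3). The log2 fold change was -1.22 ± 0.351 over the 6 libraries (adjusted p = 0.0936), -1.34 with sex state as a term (adjusted p = 0.037) and -1.69 ± 0.181 in the Y-linked libraries (adjusted p = 0.00274). KO 1 was 1.56-fold below WT 1. Fewer cells of a type and less RNA per cell cannot be told apart in such bulk tissue.

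To compare levels between genes, CPM was divided by the length of all annotated exons of a gene. This length, 6419 bases for Cish and 9531 for Socs2, can exceed that of the transcript in use, so the order is approximate. In WT, Ghr (61.9 ± 10.8 CPM per kb, SD, n = 3) and Igf1 (56.1 ± 2.55) were highest and did not differ beyond their spread. Igfals (36.1 ± 2.38) and Stat5b (15.1 ± 0.597) followed, each clear of its neighbours. The other 6 genes were much lower, between 4.26 ± 0.271 for Jak2 and 1.2 ± 0.384 for Socs3, with Socs2, Bcl6, Stat5a and Cish in between and neighbours in that order overlapping. In KO, Igf1 (49.0 ± 9.89 CPM per kb) was above Ghr (31.8 ± 15.0). Igf1 was the higher of both genes in each KO library, at 59.1, 39.3 and 48.6 CPM per kb against 46.7, 16.7 and 32.0 for Ghr, and also in WT 1, at 58.4 against 49.5. The members also differed in how steady they were among WT livers. Stat5b and Igf1 varied by 3.96% and 4.55% in WT, while Bcl6, Cish and Socs2 varied by 81.6%, 76% and 56%. WT 1 stood apart for these 3 genes, low for Bcl6 and high for Cish and Socs2.

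The difference between the Xist pair and the Y-linked libraries was tested as an interaction of group and sex state. Cish passed in edgeR, with an effect lower by 2.71 ± 0.259 on the log2 scale in the Xist pair (adjusted p = 0.0114), where 2.9% of 14539 genes passed and 1.19% passed with a lower effect in the Xist pair. The other 9 members did not pass, and Bcl6 (3.19 ± 0.622, adjusted p = 0.0652) and Socs3 (-2.43 ± 0.491, adjusted p = 0.0726) were closest. The sign of the KO difference was opposite in both sets for 4 members, Bcl6, Cish, Socs3 and Igf1, and this was so for 37% of all genes tested. In the Xist pair Igf1 was only 1.01-fold higher in KO, and Socs3 only 1.25-fold lower. The interaction sets 1 mouse per group against 2 and has 2 residual degrees of freedom.

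Other genes of the pathway came from lists of receptors and kinases, STAT factors, SOCS genes, phosphatases and PIAS proteins, IGF ligands and proteases, IGF binding proteins and cytokine receptors. Some of the 10 members are in these lists too, and the counts below include them. The receptors and kinases hold 2 members, the STAT factors 2, the SOCS genes 3 and the IGF ligands and proteases 2. Over the 6 libraries 0 genes of these lists passed in edgeR. Before adjustment 6 of 10, 3 of 7, 2 of 7, 1 of 8, 2 of 7, 3 of 7 and 5 of 7 genes tested were below 0.05, beside 26.3% of all genes. DESeq2 called 3, 1, 2, 1, 1, 2 and 3 of them, in the same order, where it called 15.8% of all genes. Its SOCS calls were the members Socs2 and Socs3, and its IGF ligand call was the member Igfals. With limma voom 2 cytokine receptors and no others were called (2.97% of all genes). Among the 10 receptors and kinases, 2 rose and 4 fell in the Y-linked libraries, beside 17.2% higher and 16.1% lower among all genes. The members Ghr and Jak2 are among the 4 that fell. The insulin receptor substrate Irs2 was at 81.1, 94.6 and 77.4 CPM in KO and at 57.3, 28.6 and 35.2 CPM in WT, with no overlap, and rose by 1.43 on the log2 scale in the Y-linked libraries (adjusted p = 0.00316; 0.0712 over all 6). Sh2b1, an adaptor that enhances JAK2 activity, was at 45.4 ± 4.01 CPM in KO and 34.2 ± 1.67 CPM in WT (SD, n = 3; adjusted p = 0.0929, and 0.0242 in the Y-linked libraries).

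Of the 7 STAT factors, 3 were called higher in the Y-linked libraries and the 2 Stat5 genes lower, beside 17.2% higher and 16.1% lower among all genes. Stat3, the main factor of interleukin-6 signals, was at 113, 133 and 159 CPM in KO and 94.9 to 97.4 CPM in WT, with no overlap (adjusted p = 0.118, and 0.023 in the Y-linked libraries). Of 8 SOCS genes 7 were tested over the 6 libraries, and the Y-linked calls were those of Cish, Socs2 and Socs3 alone. Among the 8 phosphatases and PIAS proteins, Pias3, which restrains STAT3, was at 5.87 ± 0.0527 CPM in WT and 3.74 ± 0.237 CPM in KO (SD, n = 3) and fell in the Y-linked libraries (adjusted p = 0.0233; 0.0657 over all 6). Ptpn2, a phosphatase of STAT proteins, rose by 0.59 on the log2 scale there (adjusted p = 0.0187) and had 8.51 CPM in KO 1 against 9.38 CPM in WT 1.

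Cytokine receptors that share STAT3 with the SOCS3 branch were listed too, and of 7 tested 2 rose and 1 fell in the Y-linked libraries. Among all genes 17.2% rose and 16.1% fell there. Il6st, the common subunit gp130, was at 107.6 to 121 CPM in KO and 166 to 183 CPM in WT, with no overlap and an adjusted p-value of 0.0525 over the 6 libraries and 0.012 in the Y-linked libraries. Il6ra was at 20.8 ± 4.18 CPM in KO and 34.5 ± 6.18 CPM in WT (SD, n = 3; adjusted p = 0.0828, and 0.0544 in the Y-linked libraries), which did not pass in either set. The leptin receptor Lepr, named after its values were seen, was at 123, 254 and 249 CPM in KO and at 32.8, 2.95 and 1.69 CPM in WT. Every KO library was higher than every WT library, and over all 6 the adjusted p-value was 0.0912.

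The IGF binding proteins, which carry IGF1 and set its access to receptors, were 7 genes of which 0 passed over the 6 libraries in edgeR. In the Y-linked libraries 1 rose and 3 fell, beside 17.2% higher and 16.1% lower among all genes, and the median log2 fold change was -0.99. Igfbp1, which is known to be raised by fasting and lowered by insulin, was at 281, 700.0 and 425 CPM in KO and at 283, 106 and 91.1 CPM in WT. KO 1 and WT 1 were alike, and the Y-linked libraries differed by 5.70-fold on the means (log2 fold change 2.51, adjusted p = 0.00306; 0.128 over all 6). Igfbp2, Igfbp3 and Igfbp7, named after their values were seen, fell by 1.19, 0.88 and 1.06 on the log2 scale in the Y-linked libraries (adjusted p = 0.0126, 0.0117 and 0.00877). Over all 6 libraries their adjusted p-values were 0.192, 0.53 and 0.166. Igfbp4, also named after its values were seen, was the most abundant by count, at 1009, 1010 and 1241 CPM in KO and 788 to 1029 CPM in WT (adjusted p = 0.399). Igfbp6 was near the detection limit, at 0.054 to 0.137 CPM in KO and 0.214 to 1.28 CPM in WT (adjusted p = 0.0967).

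Of the 10 genes for IGF ligands, receptors and proteases, Igf2 was barely present, at 0.267 ± 0.047 CPM in KO and 0.494 ± 0.0862 CPM in WT (SD, n = 3; adjusted p = 0.169). Pappa2 encodes a protease that cleaves IGF binding proteins and so frees IGF1, and it was named after its values were seen. It had 10, 9406 and 5823 counts in KO 1 to 3 and 3, 0 and 8 counts in WT 1 to 3. In CPM, KO 2 and KO 3 were at 169 and 124, and no other library was above 0.172. The filter over the 6 libraries removed it. It passed the filter in the Y-linked libraries through its KO counts, so its values are given with no test.

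**Figure D3:**
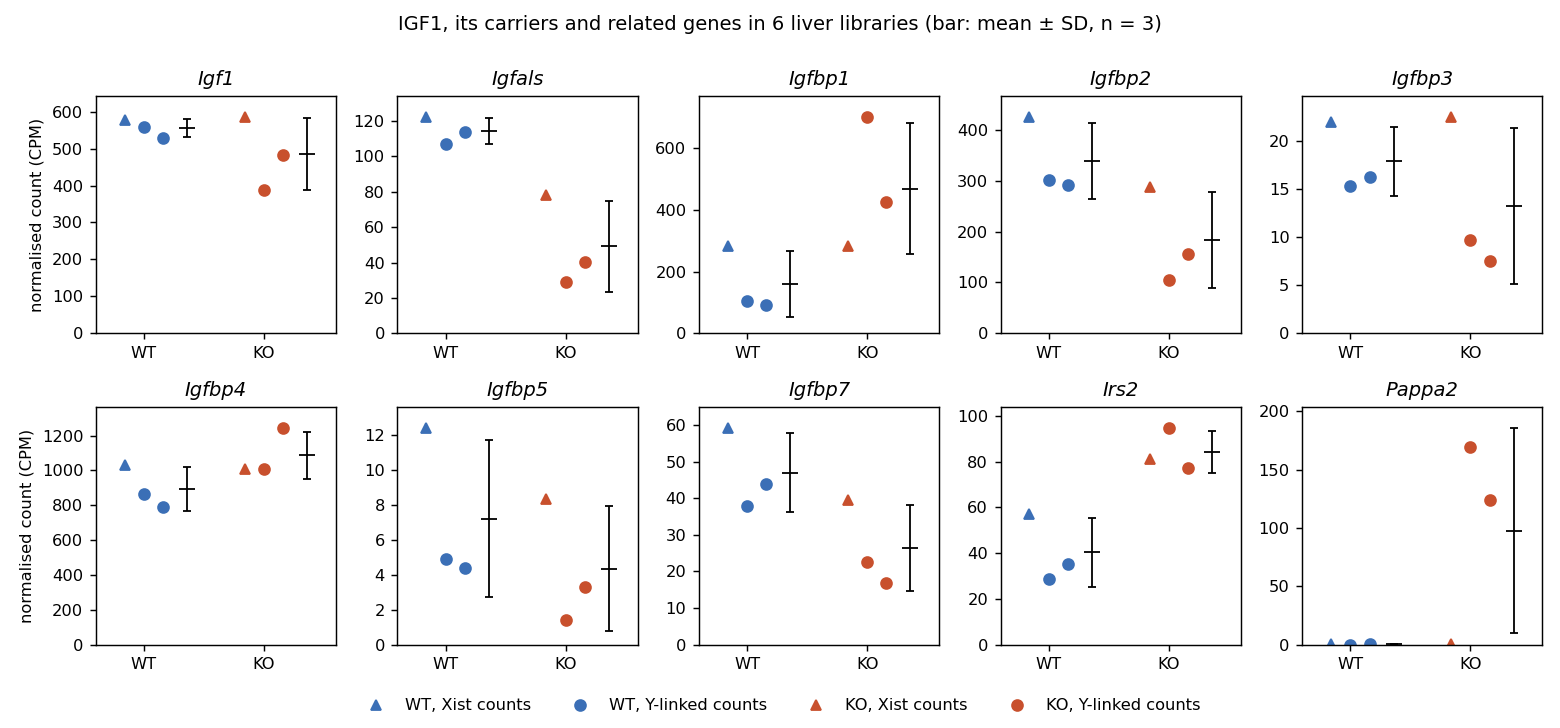
Normalised counts (CPM) of Igf1, Igfals, 6 IGF binding proteins, Irs2 and Pappa2 in each library, with triangles for the Xist pair, circles for the Y-linked libraries and bars for the mean ± SD of each group (n = 3). Pappa2 is at 169 and 124 CPM in KO 2 and KO 3 and near 0 in the other 4 libraries, and Irs2 is higher in all 3 KO libraries.

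Growth hormone pulses reach the liver's sex-biased genes partly through other transcription factors, and 11 such factors were listed, Bcl6 among them. In the Y-linked libraries 4 rose and 4 fell, where 17.2% and 16.1% of all genes did. The 4 that rose include Cux2, which passed the filter there through its KO counts. Over the 6 libraries edgeR and limma voom called 0, with 4 below 0.05 before adjustment in edgeR (26.3% of all genes), and DESeq2 called 4 (15.8% of all genes). Cux2, a female-biased repressor of male genes, was at 8.11, 18.7 and 28.2 CPM in KO and at 10.9, 0.116 and 0.428 CPM in WT. WT 1 and all KO libraries expressed it, while WT 2 and WT 3 were near 0. Trim24, a co-regulator, was at 31.3, 46.7 and 49.1 CPM in KO against 44.5, 11.0 and 11.4 CPM in WT. Tox was at 5.08, 7.18 and 6.81 CPM in KO against 8.97, 2.83 and 2.01 CPM in WT, so WT 2 and WT 3 were the lowest libraries for all 3 genes. These 3 genes were named after their values were seen, and over all 6 libraries their adjusted p-values were 0.331 for Cux2, 0.331 for Trim24 and 0.611 for Tox. Among the factors shared with other programs, the glucocorticoid receptor Nr3c1 was at 67.8 ± 5.96 CPM in KO and 98.4 ± 4.84 CPM in WT (SD, n = 3; adjusted p = 0.0637, and 0.0128 in the Y-linked libraries). Cebpa was at 124 ± 24.6 CPM against 183 ± 1.59 CPM (adjusted p = 0.107, and 0.011 in the Y-linked libraries), and Foxa1, a factor that opens chromatin and that was named after its values were seen, fell by 1.31 on the log2 scale in the Y-linked libraries (adjusted p = 0.00331; 0.128 over all 6).

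Of 15 male-biased genes known to depend on growth hormone, all 15 were lower in WT 1 than in WT 2 and WT 3. The share of all genes with that order among the WT libraries was not computed. All 15 were also lower in KO 2 and KO 3 than in WT 2 and WT 3. Such separation downward in the Y-linked libraries was seen for 35.2% of all genes. For the 14 tested, 14 fell in the Y-linked libraries (16.1% of all genes did) and the median log2 fold change was -6.22. Over the 6 libraries edgeR and limma voom called 0 of them, with 11 below 0.05 before adjustment in edgeR (26.3% of all genes), and DESeq2 called 9 (15.8% of all genes). In the Xist pair 13 of the 15 were higher in KO 1 than in WT 1. That count compares 1 mouse with 1 mouse, and the share of all genes was not computed. Their summed level was 24046 and 27605 CPM in WT 2 and 3, 472 CPM in WT 1, and 1295, 1084 and 940.2 CPM in KO 1 to 3. The next 2 genes were named after their values were seen. Cyp7b1, an oxysterol hydroxylase, had a middle level of 98.1 and 77.6 CPM in KO 2 and 3, between 18.2 CPM in WT 1 and 353 and 454 CPM in WT 2 and 3. Slco1a1, an organic anion carrier, was at 0.198 and 0.191 CPM in KO 2 and 3, below WT 1 at 9.82 CPM and far below 753 and 564 CPM in WT 2 and 3. Slco1a1 passed the filter in the Y-linked libraries through its WT counts, so the 14 calls there are no test of the list. Cyp2u1 and Elovl3 had the smallest p-values of this list over the 6 libraries (adjusted p = 0.0581 and 0.071).

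The 17 female-biased genes did not all follow. All 17 were higher in WT 1 than in WT 2 and WT 3, and the share of all genes with that order was not computed. In the Y-linked libraries 11 of the 17 were separated upward (36.6% of all genes), and 8 of the 9 that could be tested rose (17.2% of all genes did). Cux2, near 0 in WT 2 and WT 3, passed the filter there through its KO counts, so those 8 calls are no test of the list. For the 9, the median log2 fold change was 3.20 in the Y-linked libraries and 0.53 over the 6 libraries. Over the 6 libraries edgeR called 0 of the 9, with 1 below 0.05 before adjustment (26.3% of all genes). DESeq2 and limma voom called 1 each (15.8% and 2.97% of all genes). In the Xist pair, again 1 mouse against 1, 13 of the 17 were lower in KO 1, and the share of all genes was not computed. Cyp17a1, a steroid hydroxylase, was at 519.8, 924.5 and 1236 CPM in KO and at 69.3, 2.24 and 2.59 CPM in WT, so every KO library exceeded WT 1 as well (adjusted p = 0.0918 over the 6 libraries, and 0.0466 with sex state as a term).

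**Figure D4:**
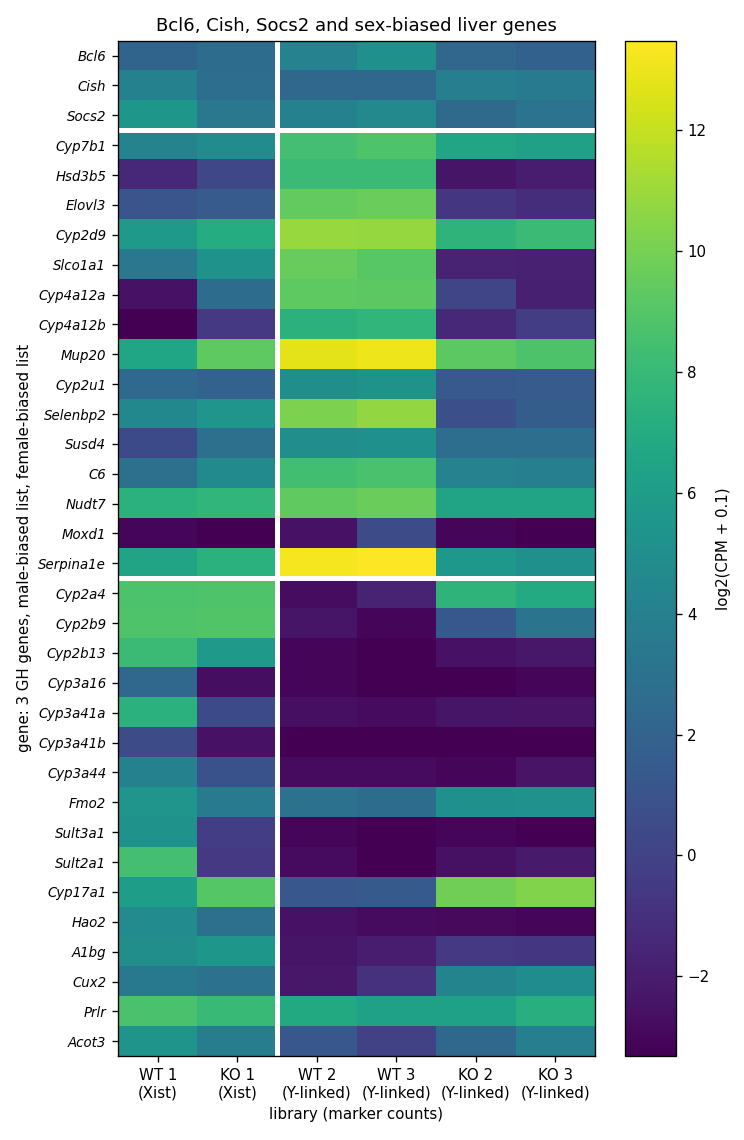
Heat map of log2(CPM + 0.1) for Bcl6, Cish, Socs2, the 15 male-biased and 16 of the 17 female-biased genes in each library, with the Xist pair left of the white line. The male-biased genes are brightest in WT 2 and WT 3, and Cyp17a1 is brightest in the 3 KO libraries.

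All 8 hepatocyte markers had counts in every library, as the tissue label implies, with Hnf4a at 542 to 669.7 CPM in KO and 524 to 539 CPM in WT. Their summed level was lower in KO, at 70293, 23474 and 36176 CPM against 82899 to 120274 CPM in WT, with albumin (Alb) at 10394 CPM in KO 2 and 57064 CPM or more in WT. The markers did not all fall. Over the 6 libraries edgeR called 1 of the 8 higher and 0 lower, where 3.37% of all genes passed. In the Y-linked libraries 1 was called higher and 4 lower, beside 17.2% higher and 16.1% lower among all genes. Of the markers of other cell types, only the endothelial sums did not overlap between the groups. The summed level of 8 endothelial markers was 81.2 to 137 CPM in KO and 166 to 227 CPM in WT, that of 8 stellate markers 128 to 251 and 196 to 405 CPM, and that of 8 macrophage markers 78.0 to 187 and 121 to 165 CPM. All of these 24 markers had counts in every library. For 8 lymphocyte and neutrophil markers the sums were 4.67 to 10.0 CPM in KO and 6.90 to 9.94 CPM in WT, with Ly6g at 0 throughout. The 5 erythroid markers were at 42.0 and 58.6 CPM in KO 2 and KO 3, against 188 to 432 CPM in WT and 255 CPM in KO 1. The 6 bile duct markers were at 25.0 to 74.9 CPM in KO and 39.7 to 73.3 CPM in WT. The part of these cells, and of the lower albumin level, in the values of the 10 members was not tested.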

How the data were processed

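Expected counts, the read numbers per gene that RSEM estimates, were deposited by the authors for 55450 genes. The submitters' processing notes list bcl2fastq 2.17, cutadapt 1.18, STAR 2.7.0f and RSEM 1.3.1, and mm9 as the build. All 55450 gene identifiers, with versions, are those of GENCODE M21 on GRCm38, so positions and exon lengths were taken from it. The columns were matched to samples by the description label. The depth of 47659122 to 56147667 counts puts 3 counts at 0.0515 to 0.0641 CPM.

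Counts were rounded, filtered with filterByExpr, scaled with edgeR's TMM factors and tested with edgeR 4.0.16 (quasi-likelihood, R 4.3.3) with the group as the only term. Adjusted p-values (Benjamini-Hochberg) cover all 14539 genes, with a threshold of 0.05. The SE is the log2 fold change divided by the square root of F. Sex state was read from Xist and Ddx3y, Eif2s3y, Kdm5d and Uty. DESeq2 1.42.0 and limma 3.58.1 were alternatives, and the code was tested on simulated data. Genes named were the members, Stk11 and, per list, the genes that passed (at most 5) or the 2 with the smallest p. Genes outside this rule (Cux2, Trim24, Tox, Foxa1, Lepr, Pappa2, Igfbp2, Igfbp3, Igfbp4, Igfbp7, Slco1a1, Cyp7b1) were named after their values were seen. Some genes that this rule names are not reported here, though counts over lists include them. Members, lists and tests were chosen with earlier results of these data known.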

Additional observations from a re-analysis of the deposited data

Results flagged for a closer look

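The KO difference was tested for a change between the Xist pair and the Y-linked libraries, and the following named genes passed in edgeR's interaction test. Values are the effect in the Xist pair minus the effect in the Y-linked libraries on the log2 scale. The effect was lower in the Xist pair for Cish (-2.71, adjusted p = 0.0114), Trim24 (-2.60, adjusted p = 0.00508), Tox (-2.35, adjusted p = 0.0364), Cux2 (-6.88, adjusted p = 0.0131), Lepr (-4.84, adjusted p = 0.00952) and Cyp17a1 (-5.90, adjusted p = 0.00508). It was higher in the Xist pair for the male-biased genes Cyp2u1 (3.28, adjusted p = 0.00541), Elovl3 (11.14, adjusted p = 0.00119), Slco1a1 (13.74, adjusted p = 0.000668) and Cyp7b1 (2.77, adjusted p = 0.0213). Trim24, Tox, Cux2, Lepr, Slco1a1 and Cyp7b1 were named after their values were seen, so their p-values describe genes picked with this pattern known. Slco1a1 in KO 2 and KO 3, and Cux2 in WT 2 and WT 3, were near the detection limit. Both genes passed the filter through libraries where they were higher, so the size of their values is uncertain. The Xist side of each value rests on 1 mouse per group.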

How the results depend on the processing

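The count of members called was 0 over the 6 libraries, 1 with no filter beyond 1 count (Socs2), 5 with DESeq2, 2 with sex state as a term and 9 in the Y-linked libraries. Leaving out 1 library in turn gave 0 to 7 members, with 7 without KO 1 and 1 without WT 1. The genes called were 490 over the 6 libraries, 771 with no filter, 2290 with DESeq2, 1504 with sex state and 4847 in the Y-linked libraries, and 6 to 4473 with 1 library left out. Those counts were 4473 without KO 1, 86 without KO 2, 35 without KO 3, 262 without WT 1, 6 without WT 2 and 20 without WT 3. For the interaction, no filter gave 1607 genes and 5 members, in place of 421 and 1. With the replicate block 105 genes and 1 member (Socs2, adjusted p = 0.0348) were called. Deviations of same-numbered libraries correlated at 0.178, 0.044 and 0.068, and KO 2 and KO 3 correlated better with the other's number, so the numbers were not used as pairs. The direction of each of the 10 members was kept in all 14 refits, though Cish was only at 0.04 on the log2 scale without WT 3. Of the 140 member values in these refits, 26 passed where the 6-library comparison did not. No refit took the Xist pair alone, where Bcl6, Cish, Socs3 and Igf1 had the direction opposite to that over the 6 libraries. For Igf1 that difference was only 1.01-fold. The causes were not tested.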
